A study of Canis lupus familiaris with 36 samples.

Results

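ERCC6L2, DMXL1 and FAM91A1 are hubs of a co-expression module called cyan, which was tied to the combined treatment of lymphoma cells with a pair of kinase inhibitors. They are the 3 rows of the count table, of 30424 genes in all, whose Ensembl identifiers the study's supplementary tables pair with these symbols: ENSCAFG00000001219 for ERCC6L2, ENSCAFG00000000167 for DMXL1 and ENSCAFG00000001027 for FAM91A1. Hubs are the most connected genes of a module whose expression profile also follows that of the whole module. Both the module and its hubs were derived from the libraries described here. The differences between treatments, the correlations among the 3 genes and their relation to other cyan genes are therefore given as descriptions, without p-values for these genes.

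CLBL-1 is a cell line from a canine B-cell lymphoma and serves as a model of diffuse large B-cell lymphoma of the dog. The cells were incubated with 1 μM Ibrutinib (Ibr), an inhibitor of the kinase BTK, with 5 μM AS-605240 (AS), an inhibitor of the PI3K catalytic subunit PIK3CG, with both (Ibr + AS) or with DMSO alone for 24, 48 or 72 h. Both inhibitors were dissolved in DMSO, and the control cells received as much of it as the combination. Replicates 1, 2 and 3 are cells of 3 passages of this 1 line, so the spread is that between passages and harvests of 1 cell line and not between dogs. Poly-A RNA gave 36 libraries in 12 groups of 3. The library Ibr 72 h replicate 3, which the publication also set aside, was left out of the fits.

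BTK and PI3K both act downstream of the B-cell receptor, whose signaling sustains many B-cell lymphomas. ERCC6L2 is a Snf2-family ATPase that acts in the end joining of DNA double-strand breaks, and inherited loss of it causes bone marrow failure. DMXL1 is a large WD-repeat protein related to rabconnectin-3 and works with WDR7 in the assembly of the V-ATPase, the proton pump that acidifies endosomes and lysosomes. FAM91A1 forms a complex with WDR11 at the trans-Golgi network, where it takes part in the capture of vesicles that arrive from endosomes. No sequence of the 3 genes is shown, since no reference sequence of the assembly used for counting was at hand.

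Depth was 9941919 to 14703839 reads on genes per library, with a median of 11888025. The B-cell marker TNFRSF13C, the BAFF receptor, lay between 70.5 and 308 CPM (read counts relative to the library total, scaled by TMM factors) in the 36 libraries. Of the 3 paired T-cell and NK-cell markers, CD226 did not exceed 0.682 CPM, TCF7 0.314 CPM and IL2RB 0.0934 CPM. Of the 3 paired macrophage and dendritic cell markers, TREM2 did not exceed 0.0934 CPM and DCSTAMP 0.809 CPM, whereas LYZ, encoding lysozyme, lay between 65.4 and 314 CPM. Both TNFRSF13C (log2 FC ± SE, 1.28 ± 0.10, 1.27 ± 0.10 and 1.34 ± 0.10) and LYZ (1.68 ± 0.12, 1.27 ± 0.12 and 0.68 ± 0.12) were higher with Ibr + AS than with DMSO at 24, 48 and 72 h (edgeR adjusted p = 1.05e-19, 2.49e-19 and 1.79e-20, and 1.66e-13, 1.9e-10 and 3.3e-05), and their part in the results below was not tested. The other markers of the lists were not analysed here. In bulk RNA, a lower level of a gene in every cell and a smaller share of cells that express it cannot be told apart.

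All 3 genes were expressed in every library, with 159 to 452 reads for ERCC6L2, 442 to 1700 for DMXL1 and 478 to 1365 for FAM91A1. Their levels spanned 14.9 to 32.4 CPM for ERCC6L2, 41.5 to 124 CPM for DMXL1 and 44.9 to 100.27 CPM for FAM91A1, a 2.17-fold, 2.99-fold and 2.23-fold range over the 36 libraries. For each gene the lowest library was the same one, Ibr + AS 24 h replicate 1. The order of the 12 group means had the same end for each gene: the lowest mean was Ibr + AS at 48 h, the next Ibr + AS at 24 h and the third Ibr + AS at 72 h. Neighbors in the order of the 12 means were closer to each other than the larger of their SDs for each gene.

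**Figure D1:**
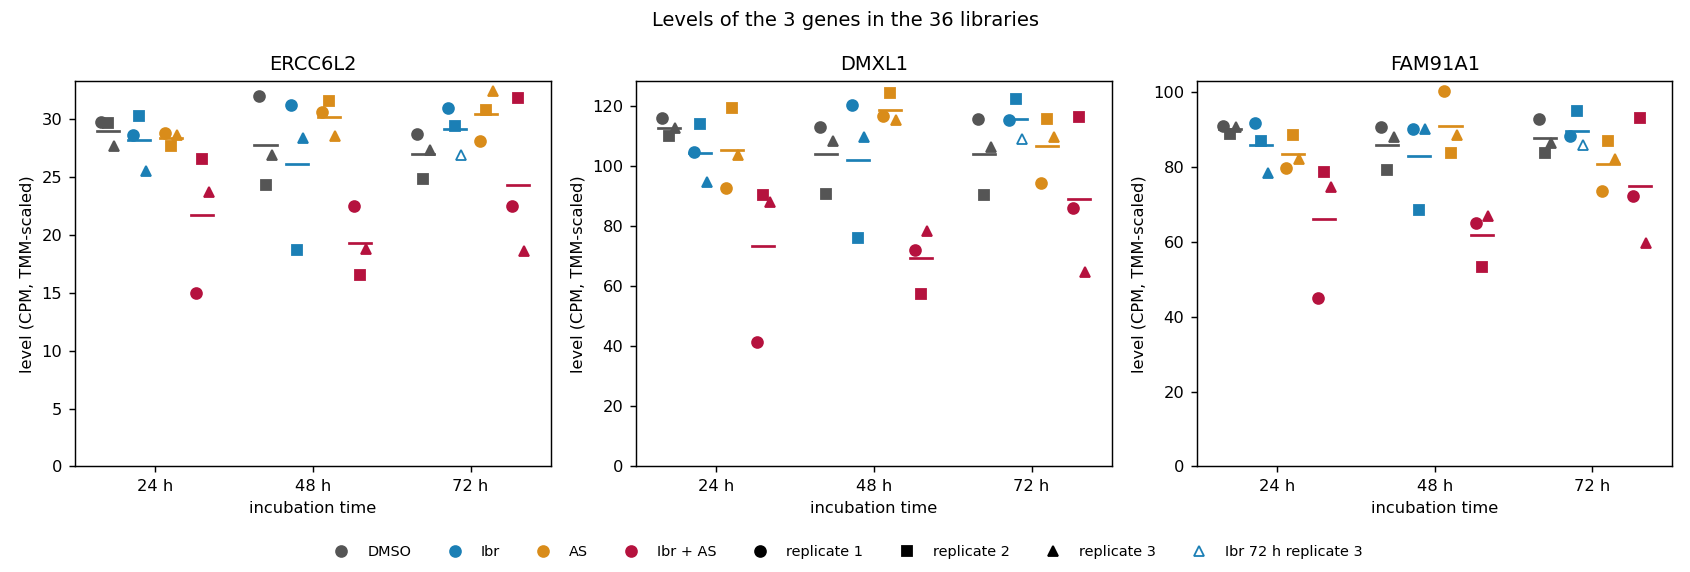
Levels of ERCC6L2, DMXL1 and FAM91A1 (y axis, TMM-scaled CPM) in the 36 libraries by incubation time (x axis) and treatment (color). Each point is 1 library, its shape gives the replicate (passage), horizontal lines are the means of the 3 libraries, and the open triangle is Ibr 72 h replicate 3, which was left out of the fits. The 3 Ibr + AS group means are the lowest for each gene, and in each of these groups the same library is the lowest for all 3 genes: replicate 1 at 24 h, replicate 2 at 48 h and replicate 3 at 72 h.

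ERCC6L2, the Snf2-family repair factor, had 29.7, 29.6 and 27.6 CPM in the DMSO libraries of 24 h (replicates 1, 2 and 3) and 14.9, 26.5 and 23.7 CPM in those of Ibr + AS at 24 h. At 48 h it had 31.9, 24.3 and 26.9 CPM with DMSO and 22.5, 16.6 and 18.8 CPM with Ibr + AS. At 72 h the DMSO libraries held 28.7, 24.9 and 27.3 CPM and the Ibr + AS libraries 22.5, 31.8 and 18.6 CPM. The Ibr + AS libraries lay below all DMSO libraries at 24 h and 48 h, while at 72 h the groups overlapped, because the library of replicate 2 was among the highest of all libraries and the other two were below DMSO. The means of the 9 groups without Ibr + AS ran from 26.1 to 30.4 CPM (SD 0.611 to 6.56 CPM, n = 3). The mean of Ibr + AS was 21.7 ± 6.03 CPM at 24 h, 19.3 ± 2.99 CPM at 48 h and 24.3 ± 6.77 CPM at 72 h (SD, n = 3), so these 3 groups did not differ from each other beyond their spread either.

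DMXL1, the V-ATPase assembly factor, had the widest range. Its DMSO libraries of 24 h held 116, 109.9 and 113 CPM and those of Ibr + AS 41.5, 90.3 and 88.1 CPM. At 48 h the values were 113, 90.6 and 108 CPM with DMSO and 72.1, 57.5 and 78.4 CPM with Ibr + AS. The groups did not overlap at either time, and at 24 h the library of replicate 1 stood far below the other two Ibr + AS libraries. At 72 h DMSO gave 115.7, 90.3 and 106 CPM and Ibr + AS 86.1, 116.4 and 64.8 CPM, so that the highest and the lowest library both belonged to Ibr + AS. The means of Ibr + AS were 73.3 ± 27.5, 69.3 ± 10.7 and 89.1 ± 25.9 CPM at 24, 48 and 72 h (SD, n = 3), against 102 to 119 CPM in the other 9 groups.

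FAM91A1, the trans-Golgi tethering factor, had 91.0, 88.8 and 90.7 CPM in the DMSO libraries of 24 h and 44.9, 78.8 and 74.8 CPM in those of Ibr + AS. At 48 h DMSO gave 90.8, 79.2 and 88.0 CPM and Ibr + AS 65.1, 53.3 and 67.0 CPM. As for DMXL1, the groups were apart at 24 h and 48 h and overlapped at 72 h, where DMSO gave 92.9, 83.7 and 86.6 CPM and Ibr + AS 72.3, 93.1 and 59.8 CPM. The means of Ibr + AS were 66.2 ± 18.5, 61.8 ± 7.44 and 75.1 ± 16.8 CPM (SD, n = 3), and the other 9 group means lay between 81.0 and 90.9 CPM.

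The comparison of Ibr + AS with DMSO asks what the combination does beyond the solvent. In the edgeR fit of 35 libraries with passage as a term, DMXL1 was lower by a log2 FC of -0.65 ± 0.22 (SE) at 24 h and -0.58 ± 0.22 at 48 h, which is a change of its fitted level by -36.2% and -33.1%. ERCC6L2 had a log2 FC of -0.43 ± 0.18 and -0.52 ± 0.18, and FAM91A1 of -0.47 ± 0.16 and -0.47 ± 0.16. At 72 h the log2 FC was -0.15 ± 0.18 for ERCC6L2, -0.23 ± 0.22 for DMXL1 and -0.22 ± 0.16 for FAM91A1. For comparison, the 10785 genes whose mean reached 1 CPM had median log2 FCs of -0.03, -0.03 and 0.01 at the 3 times.

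A DEG had to reach an adjusted p of 0.05 and to differ by more than 1 on the log2 scale. By this limit 0 of the 3 genes qualified at any time by edgeR, whereas 8.26% of all 18670 genes tested did at 24 h, 7.69% at 48 h and 7.53% after 72 h. Without the limit on log2 FC, 2 of 3 (DMXL1 and FAM91A1) were lower at 24 h beside 16.9% of all genes, 2 of 3 (ERCC6L2 and FAM91A1) at 48 h beside 15.3%, and 0 of 3 at 72 h beside 14.5%. DESeq2 gave 3 of 3, 3 of 3 and 0 of 3, beside 17.6%, 16% and 15.8% of all genes. The 3 DESeq2 shares are too low, since higher genes without an adjusted p were counted among the genes tested. Over genes with an adjusted p they were 21.6%, 19.6% and 19%. At an unadjusted p under 0.05 in edgeR the counts were 3, 3 and 0 of 3, beside 19.6%, 18.7% and 18.2%. The Ibr + AS libraries lay below all DMSO libraries for 3 of 3 genes at 24 h and at 48 h and for 0 of 3 at 72 h, as they did for 19.2%, 19.7% and 18.2% of all genes. These counts describe genes that were chosen from the same libraries.

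**Figure D2:**
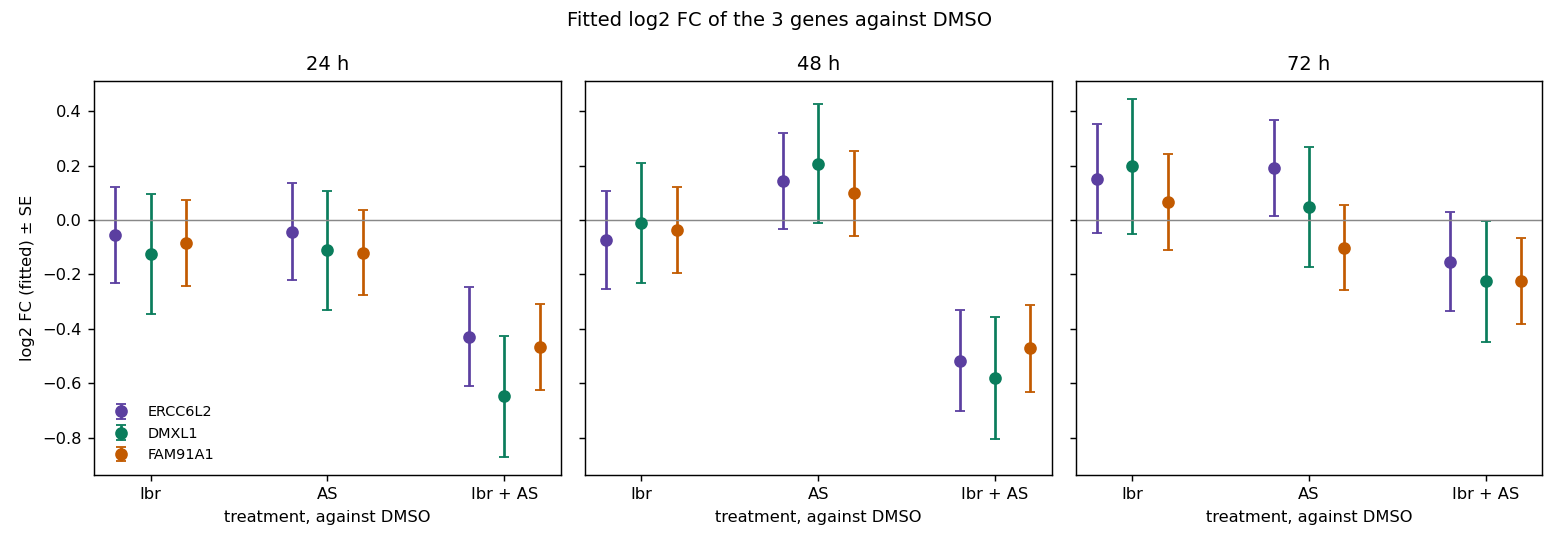
Fitted log2 FC (y axis) of the 3 genes for Ibr, AS and Ibr + AS against DMSO of the same incubation time (x axis, 1 panel per time). Points are edgeR estimates and bars 1 SE. The Ibr + AS points lie at -0.43 to -0.65 at 24 h and 48 h and at -0.15 to -0.23 at 72 h, while the points of the single treatments stay between -0.12 and 0.21.

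The single treatments were close to DMSO. For Ibr the log2 FC of the 3 genes ranged from -0.12 (DMXL1, SE 0.22, 24 h) to 0.20 (DMXL1, SE 0.25, 72 h), and for AS from -0.12 (FAM91A1, SE 0.16, 24 h) to 0.21 (DMXL1, SE 0.22, 48 h). By edgeR, 0 of 3 genes passed an adjusted p of 0.05 in either direction in these 6 comparisons. Of all genes, 3.78% were lower and 5.35% higher with Ibr at 24 h, 4.94% and 5.65% at 48 h and 9.26% and 8.36% at 72 h. With AS, 1.03% were lower and 1.49% higher at 24 h, 2.1% and 1.56% at 48 h and 6.4% and 6.8% at 72 h. At an unadjusted p under 0.05 the count of the 3 genes was again 0 in either direction. This limit was passed by 9.05% of all genes (lower) and 10.6% (higher) with Ibr at 24 h, 9.59% and 11.1% at 48 h and 14.1% and 12.7% at 72 h, and with AS by 5.89% and 7.12%, 6.25% and 7.33%, and 11% and 12%. By DESeq2 0 of 3 were lower, beside 5.76%, 6.57% and 11.2% of all genes with Ibr and 2.42%, 3.26% and 8.51% with AS. These DESeq2 shares are too low, since higher genes without an adjusted p were counted among the genes tested. Groups without overlap were seen for FAM91A1 with AS at 24 h (lower, beside 10.6% of all genes), for DMXL1 with AS at 48 h (higher, beside 9.93%) and for ERCC6L2 with Ibr at 72 h, where 2 Ibr libraries entered (higher, beside 20.4%). DMXL1 had 117, 124 and 115 CPM with AS at 48 h, its highest group mean.

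Within a single treatment, Ibr at 48 h had the widest spread. Its replicate 2 held 18.7 CPM of ERCC6L2, 76.1 CPM of DMXL1 and 68.5 CPM of FAM91A1, against 28.4 to 31.2, 109.8 to 120 and 90.2 to 90.3 CPM in replicates 1 and 3. This library was the fourth lowest of all 36 over the 3 genes, below 6 of the 9 Ibr + AS libraries.

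Against the single treatments, which share the Ibr + AS libraries with the comparison above, the 3 genes were lower as well. Against AS at 48 h the log2 FC was -0.66 ± 0.18 for ERCC6L2, -0.79 ± 0.22 for DMXL1 and -0.57 ± 0.16 for FAM91A1. By edgeR 3 of 3 genes were lower at an adjusted p of at most 0.05, beside 14.4% of all genes. DESeq2 gave 3 of 3 beside 17.9%, and an unadjusted p under 0.05 gave 3 of 3 beside 17.9%. Against Ibr at 48 h the log2 FC was -0.44 ± 0.19, -0.57 ± 0.23 and -0.43 ± 0.16. Here 0 of 3 genes were lower by edgeR (10.2% of all genes), 2 of 3 by DESeq2 (15.3%) and 3 of 3 at an unadjusted p under 0.05 (14.6%). At 24 h the log2 FC lay between -0.35 and -0.54 against AS and between -0.37 and -0.52 against Ibr, with 0 of 3 genes lower by edgeR in both, beside 12.3% and 9.39% of all genes. By DESeq2 0 of 3 were lower against AS and 1 of 3 (FAM91A1) against Ibr, beside 16.4% and 13.9%. At an unadjusted p under 0.05 these counts were 3 of 3 and 2 of 3, beside 16.2% and 14% of all genes. At 72 h the log2 FC lay between -0.12 and -0.35 against AS and between -0.29 and -0.42 against Ibr. The counts were 0 of 3 by edgeR (8.25% and 3.24% of all genes), by DESeq2 (12.5% and 6.67%) and at an unadjusted p under 0.05 (13.4% and 8.22%). Fitted on the 2 groups of the comparison alone, 2 of 3 genes were lower against Ibr at 24 h beside 7.73% of all genes in that fit, 3 of 3 against AS at 24 h beside 14.2%, and 3 of 3 against Ibr at 48 h beside 16%.

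The departure from additivity is the log2 FC of Ibr + AS less the sum of those of Ibr and AS. At 48 h it was -0.59 ± 0.26 for ERCC6L2, -0.78 ± 0.31 for DMXL1 and -0.53 ± 0.22 for FAM91A1, which is larger than the difference from DMSO itself, since AS alone lay above DMSO at this time. It passed an adjusted p of 0.05 for 0 of 3 genes by edgeR and by DESeq2, beside 7.6% and 12.4% of all genes that were lower. At an unadjusted p under 0.05 in edgeR the count was 3 of 3, beside 12.5%. At 24 h it was between -0.26 and -0.41 and at 72 h between -0.19 and -0.50, with SEs of 0.22 to 0.33 and 0 of 3 genes at an unadjusted p under 0.05 (7.31% and 9.83% of all genes), at an adjusted p of 0.05 by edgeR (2.02% and 4.06%) or by DESeq2 (3.02% and 5.62%). The DESeq2 shares at 24 h and 72 h are too low, since higher genes without an adjusted p were counted among the genes tested. Over genes with an adjusted p they were 4.06% and 7.61%. In the fit of the 48 h groups alone 3 of 3 genes were lower at an adjusted p of at most 0.05, beside 11.5% of all genes in that fit.

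With DMSO alone, the 3 genes differed little between incubation times. In the fit of the 9 DMSO libraries the log2 FC at 48 h against 24 h was -0.08 ± 0.09 for ERCC6L2, -0.13 ± 0.08 for DMXL1 and -0.08 ± 0.08 for FAM91A1. At 72 h against 24 h it was -0.14 ± 0.10, -0.16 ± 0.08 and -0.08 ± 0.08. By edgeR 0 of 3 genes were lower at either time, beside 4% and 19.5% of all genes, and by DESeq2 0 of 3, beside 2.91% and 16.8%. Both DESeq2 shares are too low, since higher genes without an adjusted p were counted among the genes tested. At an unadjusted p under 0.05, 0 of 3 were lower at 48 h (8.87% of all genes) and 1 of 3, DMXL1, at 72 h (22.1%). The effect of Ibr + AS at 72 h less that at 24 h was 0.27 ± 0.26 for ERCC6L2, 0.42 ± 0.31 for DMXL1 and 0.24 ± 0.22 for FAM91A1, with 0 of 3 genes at an adjusted or unadjusted p under 0.05 in either direction by edgeR (of all genes, 11.6% were higher and 13% lower at the adjusted limit, and 15.4% and 16.7% at the unadjusted one). Without replicate 3 in every group these values were 0.56, 0.79 and 0.48.

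Passage by passage, the difference between Ibr + AS and DMSO varied least at 48 h. There it was -0.51, -0.55 and -0.51 on the log2 CPM scale for ERCC6L2 in replicates 1, 2 and 3, -0.65, -0.65 and -0.47 for DMXL1 and -0.48, -0.57 and -0.39 for FAM91A1. At 24 h DMXL1 differed by -1.48 in replicate 1, -0.28 in replicate 2 and -0.35 in replicate 3, and the other two genes had the same order, with ERCC6L2 at -0.99, -0.16 and -0.22. At 72 h replicates 1 and 3 were lower, at -0.43 and -0.71 for DMXL1, and replicate 2 was higher, at 0.37. At 24 h and 48 h each gene was thus lower in 3 of 3 passages, and at 72 h in 2 of 3.

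**Figure D3:**
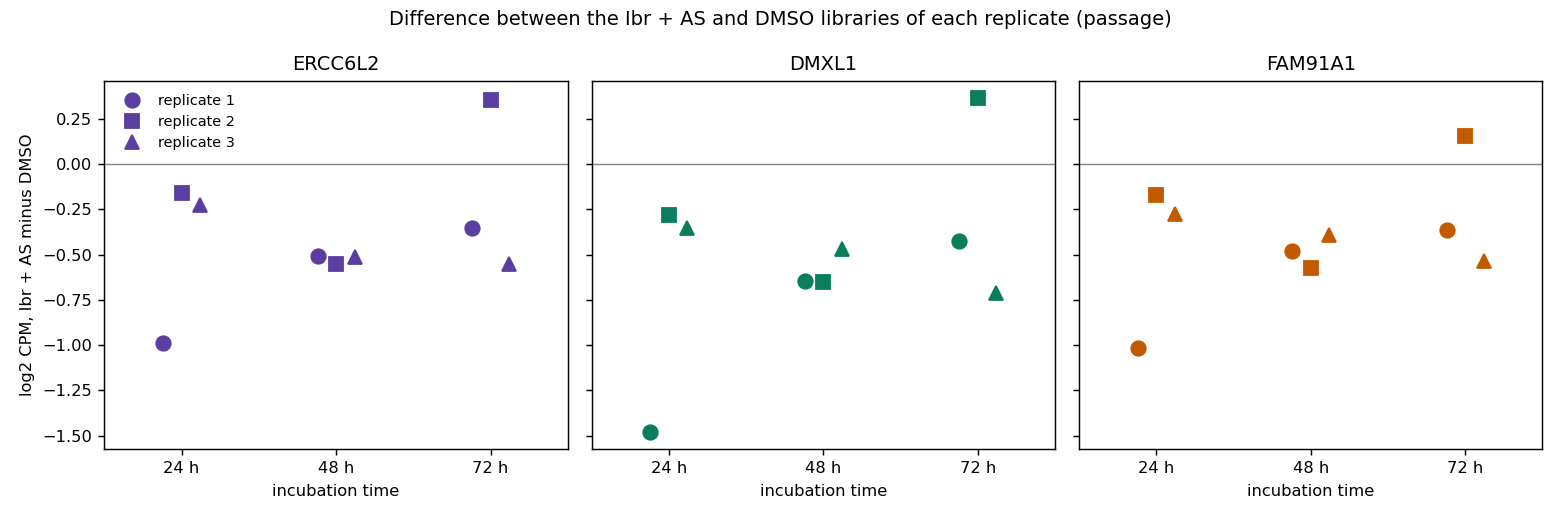
Difference between the Ibr + AS and the DMSO library of the same passage (y axis, log2 CPM) at each incubation time (x axis), 1 panel per gene. Each point is 1 pair of libraries and its shape gives the replicate. The 3 replicates lie together at 48 h (DMXL1, -0.65 to -0.47), are spread by replicate 1 at 24 h (-1.48 to -0.28) and fall on both sides of 0 at 72 h (-0.71 to 0.37).

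At 24 h and 72 h the size of the difference depended on single libraries, while at 48 h leaving one out changed the number of genes called more than the log2 FC. Without Ibr + AS 24 h replicate 1 the log2 FC at 24 h was -0.22 for ERCC6L2, -0.38 for DMXL1 and -0.27 for FAM91A1, and 2 of 3 genes were lower at an adjusted p of at most 0.05 (16.8% of all genes in that fit). Without DMSO 24 h replicate 3, whose labels name 2 passages, the values stayed at -0.45, -0.65 and -0.46, and 0 of 3 genes were called (15% of all genes). Without Ibr + AS 48 h replicate 2 the log2 FC at 48 h was -0.42, -0.45 and -0.37 with 0 of 3 genes lower (12.7% of all genes). Without replicate 3 of that group 1 of 3 was called (14% of all genes), although the log2 FCs of -0.53, -0.70 and -0.56 were larger in size than with all libraries. Without replicate 1 in every group, the log2 FC at 24 h was -0.20 for ERCC6L2, -0.33 for DMXL1 and -0.23 for FAM91A1, and 1 of 3 genes was lower (14.9% of all genes). Without replicate 2 in every group, the log2 FC at 72 h was -0.43 for ERCC6L2, -0.54 for DMXL1 and -0.42 for FAM91A1, and 2 of 3 genes were lower (13.6% of all genes). Without Ibr + AS 72 h replicate 2 alone it was -0.41, -0.47 and -0.42, and 0 of 3 were called (14.2%). Without Ibr + AS 72 h replicate 3 it was -0.0003 for ERCC6L2, -0.03 for DMXL1 and -0.08 for FAM91A1.

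Some of the libraries with low values of the 3 genes stood apart in other measures as well. The 50 most abundant genes took 18.3% to 23.6% of the reads of the Ibr + AS libraries and 16.004% to 20.96% of the reads of the other 27. The 3 lowest libraries for the 3 genes, Ibr + AS 24 h replicate 1, 48 h replicate 2 and 72 h replicate 3, had shares of 23.6%, 22.9% and 21.9% (ranks 1, 2 and 5 of 36 from the highest) and TMM factors of 0.912, 0.929 and 0.938. Ibr + AS 24 h replicate 1 was also farther from its group than any other library (a mean distance of 46.8 log2 CPM units over all genes of at least 1 CPM, against a median of 28.7 in the libraries of the other treatments), and Ibr 48 h replicate 2 came second with 43.6. Other libraries did not show this order. Ibr + AS 72 h replicate 1, the seventh lowest for the 3 genes, had a share of 18.3% (rank 21) and a TMM factor of 1.00, and Ibr + AS 24 h replicate 2, with the fourth highest share (22.05%), ranked 11th from the lowest for the genes. Ibr + AS 72 h replicate 2, where the genes were as high as in DMSO, had a share of 19.5%, a TMM factor of 1.01 and the lowest depth of all. The part of these library properties in the differences was not tested.

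The levels of the 3 genes varied together from library to library. Over the 35 libraries Pearson's r of log2 CPM was 0.966 between DMXL1 and FAM91A1, 0.937 between ERCC6L2 and DMXL1 and 0.910 between ERCC6L2 and FAM91A1, and Spearman's rho was 0.851, 0.835 and 0.732. Without the 2 libraries farthest from the median, Ibr + AS 24 h replicate 1 and 48 h replicate 2, r was 0.928, 0.898 and 0.840 over 33 libraries. Since hubs are chosen for such correlation, these values describe how tight it was and carry no p-value.

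Much of this joint variation lay within groups. With the means of group and passage removed, r was 0.951 between DMXL1 and FAM91A1, 0.925 between ERCC6L2 and DMXL1 and 0.897 between ERCC6L2 and FAM91A1. Group accounted for 53.3% of the sum of squares of log2 CPM of ERCC6L2, 56.01% of that of DMXL1 and 55.9% of that of FAM91A1, passage for 0.872%, 0.608% and 0.176%, and 45.8%, 43.4% and 44.0% remained between replicates. Over all genes of at least 1 CPM the medians were 69.0% for group, 2.704% for passage and 26.3% for the rest, and the rest was smaller than that of the 3 genes for 79.1% to 82.1% of the genes. The 3 genes therefore varied more between replicates, relative to their whole variation, than most expressed genes, and they did so together.

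**Figure D4:**
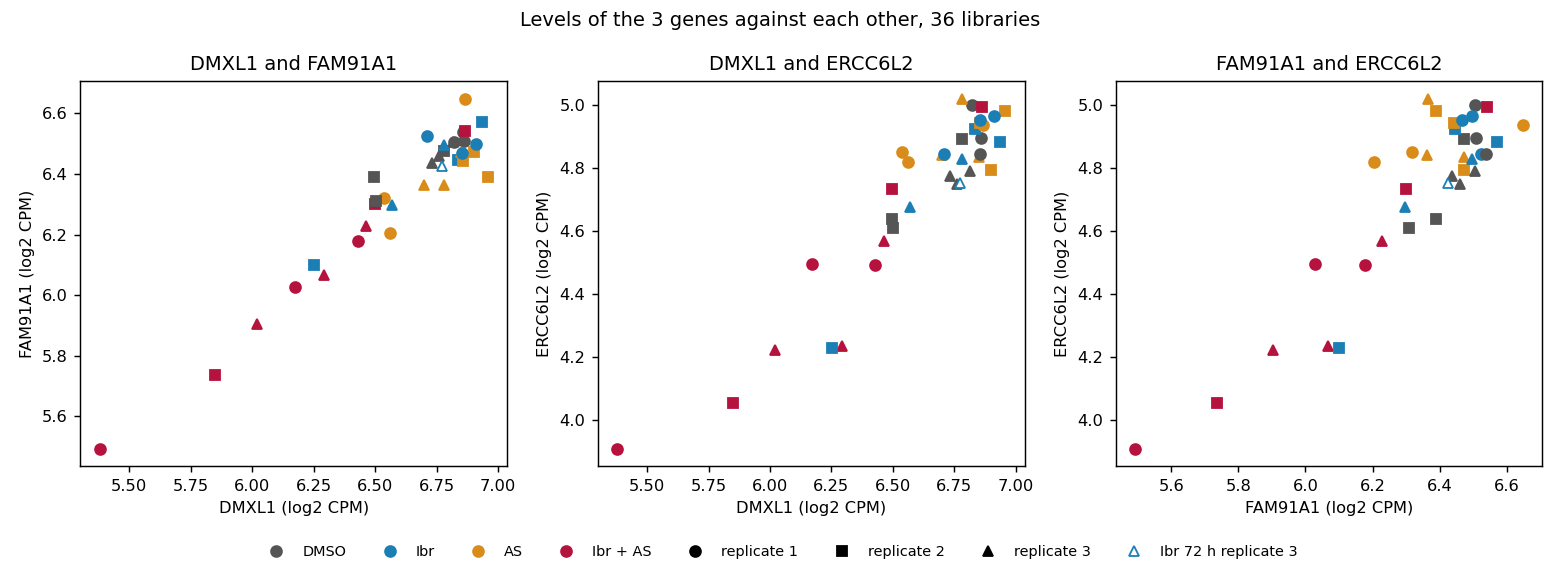
Levels of the 3 genes against each other (both axes log2 CPM), 1 point per library, colored by treatment and shaped by replicate. The open triangle is Ibr 72 h replicate 3. The libraries lie along 1 line in each panel (r = 0.966, 0.937 and 0.910 over 35 libraries, from left to right), with Ibr + AS 24 h replicate 1 at the low end and most libraries of the other treatments crowded at the high end.

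The library set aside, Ibr 72 h replicate 3, had no part in the choice of the genes. It held 26.9 CPM of ERCC6L2, 109 CPM of DMXL1 and 85.9 CPM of FAM91A1, a little below the other two Ibr 72 h libraries, which held 30.9 and 29.4, 116 and 122, and 88.4 and 95.0 CPM. Its differences from DMSO of the same passage were -0.02, 0.04 and -0.01 on the log2 scale, and it lay on the line formed by the other libraries. This is 1 library without a replicate.

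Among the 10784 other genes of at least 1 CPM, DMXL1 and FAM91A1 had each other as the gene with the highest r. From ERCC6L2, DMXL1 ranked second and FAM91A1 15th, from DMXL1, ERCC6L2 ranked 10th, and from FAM91A1, ERCC6L2 ranked 11th. With the means of group and passage removed the ranks were lower: FAM91A1 was 32nd from DMXL1 and DMXL1 3rd from FAM91A1, DMXL1 was 22nd and FAM91A1 96th from ERCC6L2, and ERCC6L2 was 104th from DMXL1 and 89th from FAM91A1. Only 878 genes of at least 1 CPM could be paired with a symbol, so most genes of similar rank have no name here. The closest named gene that was not one of the 3 was UBR2, a ubiquitin ligase of the N-degron pathway, for ERCC6L2 (r = 0.905, rank 20). For DMXL1 it was DENND4C, an activator of RAB10 (r = 0.931, rank 17). For FAM91A1 it was HAUS6, a subunit of the augmin complex of the spindle (r = 0.921, rank 6) and a gene of the lightgreen module, followed by the RNA helicase YTHDC2 (r = 0.914, rank 10). These genes were measured in the same libraries and share depth and scaling with the 3 hubs.

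Of the cyan module, 47 genes with a symbol could be read, the 3 hubs included. Each hub correlated with the first principal component of the other 44 at r = 0.942 (ERCC6L2), 0.960 (DMXL1) and 0.941 (FAM91A1), and with each gene set against the remaining ones, DMXL1, ERCC6L2 and FAM91A1 took ranks 1, 2 and 3 of 47, ahead of the RNA-binding protein QKI (r = 0.922). For the other modules, r with the first component of the listed genes was 0.689 to 0.749 for lightgreen (179 genes), 0.544 to 0.607 for darkgreen (167 genes) and -0.732 to -0.781 for darkmagenta (321 genes). It was 0.518 to 0.538 for lightcyan (36 genes), 0.468 to 0.544 for plum1 (9 genes), 0.191 to 0.234 for lightcyan1 (59 genes), 0.113 to 0.168 for salmon (19 genes) and 0.0796 to 0.133 for darkolivegreen (56 genes). The other listed cyan genes were also lower with Ibr + AS: 39 of 44 had a negative log2 FC at 24 h, 41 of 44 at 48 h and 38 of 44 at 72 h, with medians of -0.35, -0.33 and -0.14, while 52.3%, 52.8% and 49.2% of all genes of at least 1 CPM were lower. At an adjusted p of at most 0.05, 22, 21 and 7 of 44 were lower and 0 were higher at each time, again in genes grouped on these libraries. These are 50%, 47.7% and 15.9% of the 44, beside 16.9%, 15.3% and 14.5% of all genes that were lower, so at 72 h the share was near that of all genes.

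Ordered by log2 FC of Ibr + AS at 48 h, DMXL1 was 7th, ERCC6L2 12th and FAM91A1 17th from the lowest of the 47 cyan genes that could be read. These 47 are only a part of the module, and the order says nothing of its other genes. The lowest of the 47 were NHSL1, a regulator of actin dynamics (-1.13 ± 0.32, mean level 1.71 CPM), AGO2, the slicer of RNA interference (-0.95 ± 0.11), and the death-associated kinase DAPK1 (-0.86 ± 0.19). The highest were the receptor adaptor FRS2 (0.22 ± 0.16), OXR1 (0.18 ± 0.10) and KIAA2026 (0.13 ± 0.11).

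The partners of the 3 genes could be followed only where a symbol was paired, and most symbols are paired because the study listed the gene in a module built on these libraries. Of 35 V-ATPase subunits and regulators 7 were paired, of 49 genes of endosome-to-Golgi transport 10, of 29 of double-strand break repair 4, of 30 Snf2-family ATPases 2 and of 21 of the Fanconi anemia pathway 2. Counts below are over the 25 genes outside the cyan module, which include 6 chromosomal neighbors, and p-values are adjusted over all genes tested. Of the 25, 3 were higher and 5 lower with Ibr + AS than with DMSO at 24 h (17.1% and 16.9% of all genes), 5 and 3 at 48 h (15.4% and 15.3%) and 7 and 4 at 72 h (14.1% and 14.5%).

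WDR7, the partner of DMXL1 in V-ATPase assembly, belongs to the cyan module too and followed DMXL1 at r = 0.795 over 35 libraries. Its log2 FC with Ibr + AS was -0.49 ± 0.15 at 24 h, -0.47 ± 0.15 at 48 h and -0.15 ± 0.15 at 72 h, given as a description like those of the hubs. OXR1, a protein of the TLDc family that binds the V-ATPase, is a cyan gene with a weaker relation to DMXL1 (r = 0.540). Of the 5 V-ATPase genes outside the module, 0 passed an adjusted p of 0.05 at 24 h and at 48 h and 1, NCOA7, rose at 72 h (log2 FC 0.28 ± 0.10, edgeR adjusted p = 0.0216, a call that was lost in the fit of the 2 groups alone, at an unchanged log2 FC of 0.28, and without replicate 2, at 0.15). The pump subunits ATP6V1C1, ATP6V1F and ATP6V1G2 had log2 FCs between -0.23 and 0.43 with SEs of 0.10 to 0.35, and r with DMXL1 of 0.324, -0.437 and -0.394.

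Of the 8 genes of endosome-to-Golgi transport outside the module, 2 rose and 2 fell at 24 h (17.1% and 16.9% of all genes), 3 and 2 at 48 h (15.4% and 15.3%) and 4 and 2 at 72 h (14.1% and 14.5%). VPS52, a subunit of the GARP tethering complex, rose at every time (log2 FC 0.53 ± 0.10, 0.50 ± 0.10 and 0.34 ± 0.10 at 24, 48 and 72 h, edgeR adjusted p = 1.87e-06, 8.27e-06 and 0.00367), as did the clathrin adaptor GGA1 (0.39 ± 0.10, 0.37 ± 0.10 and 0.49 ± 0.10, adjusted p = 0.00053, 0.00133 and 2.72e-05). The retromer-associated sorting nexin SNX2 rose at 48 h (0.33 ± 0.09, adjusted p = 0.00185). MON2, a scaffold of Golgi trafficking, fell at every time (-0.30 ± 0.10, -0.46 ± 0.10 and -0.58 ± 0.10, adjusted p = 0.0151, 0.000175 and 2.18e-06) and was the listed gene outside the cyan module with the highest r with the hubs (0.744 to 0.769). IGF2R, the receptor that carries lysosomal enzymes, fell at 48 h and 72 h (-0.39 ± 0.10 and -0.65 ± 0.10, adjusted p = 0.000754 and 2.24e-08), while its level with DMSO went from 59.8 CPM at 24 h to 109 CPM at 72 h. With 1 passage left out, the calls of MON2 at 24 h and of IGF2R at 48 h were lost without replicate 1, at log2 FCs of -0.11 and -0.27. Those of GGA1 at 24 h, SNX2 at 48 h and VPS52 at 72 h were lost without replicate 3, at 0.34, 0.30 and 0.26. The lipid transfer protein VPS13A, a cyan gene, followed DMXL1 at r = 0.895 and had log2 FCs of -0.69 ± 0.21, -0.44 ± 0.21 and -0.53 ± 0.20, and VPS13B, also cyan, followed it at r = 0.822 with -0.21 ± 0.21, -0.10 ± 0.21 and -0.04 ± 0.21.

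In double-strand break repair, the process of ERCC6L2, MRNIP changed most. This gene, whose product binds the MRE11-RAD50-NBN complex, had a mean of 5.81 ± 0.365 CPM with DMSO and 13.2 ± 2.73 CPM with Ibr + AS at 24 h and 5.70 ± 0.905 and 15.01 ± 0.723 CPM at 48 h (SD, n = 3). It rose by a log2 FC of 1.16 ± 0.16 and 1.40 ± 0.16 (edgeR adjusted p = 7.14e-10 and 7.77e-13), but at 72 h DMSO was itself at 9.75 ± 1.03 CPM and the log2 FC was 0.24 ± 0.15 (adjusted p = 0.274). Its r with ERCC6L2 was -0.724. RAD50 fell slightly at 24 h (-0.23 ± 0.09, adjusted p = 0.0423) and MDC1, a platform at broken ends, rose slightly at 48 h (0.27 ± 0.10, adjusted p = 0.042). The call of RAD50 was lost in 5 of the alternative fits, in 4 of them at a log2 FC of -0.21 to -0.23 and without replicate 1 at -0.14, and that of MDC1 in 3, at 0.20 to 0.26. The end-joining factor XRCC6 (Ku70) had log2 FCs of -0.22 ± 0.09, -0.16 ± 0.09 and 0.07 ± 0.09 with adjusted p-values of 0.0654, 0.2 and 0.687.

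Of the Snf2-family relatives of ERCC6L2, the cyan gene SHPRH followed it at r = 0.813, with log2 FCs of -0.10 ± 0.14, -0.18 ± 0.15 and -0.25 ± 0.14, and INO80 had -0.11 ± 0.11, -0.15 ± 0.11 and 0.24 ± 0.11 (edgeR adjusted p = 0.55, 0.362 and 0.0984). Of the Fanconi anemia pathway, which repairs crosslinks between DNA strands, the cyan gene FANCC had -0.30 ± 0.12, -0.50 ± 0.12 and -0.54 ± 0.12. FANCE had 0.28 ± 0.13, 0.25 ± 0.13 and 0.32 ± 0.13, with an adjusted p of 0.0484 at 72 h that was above 0.05 in 6 of the alternative fits, at log2 FCs of 0.29 to 0.33.

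**Figure D5:**
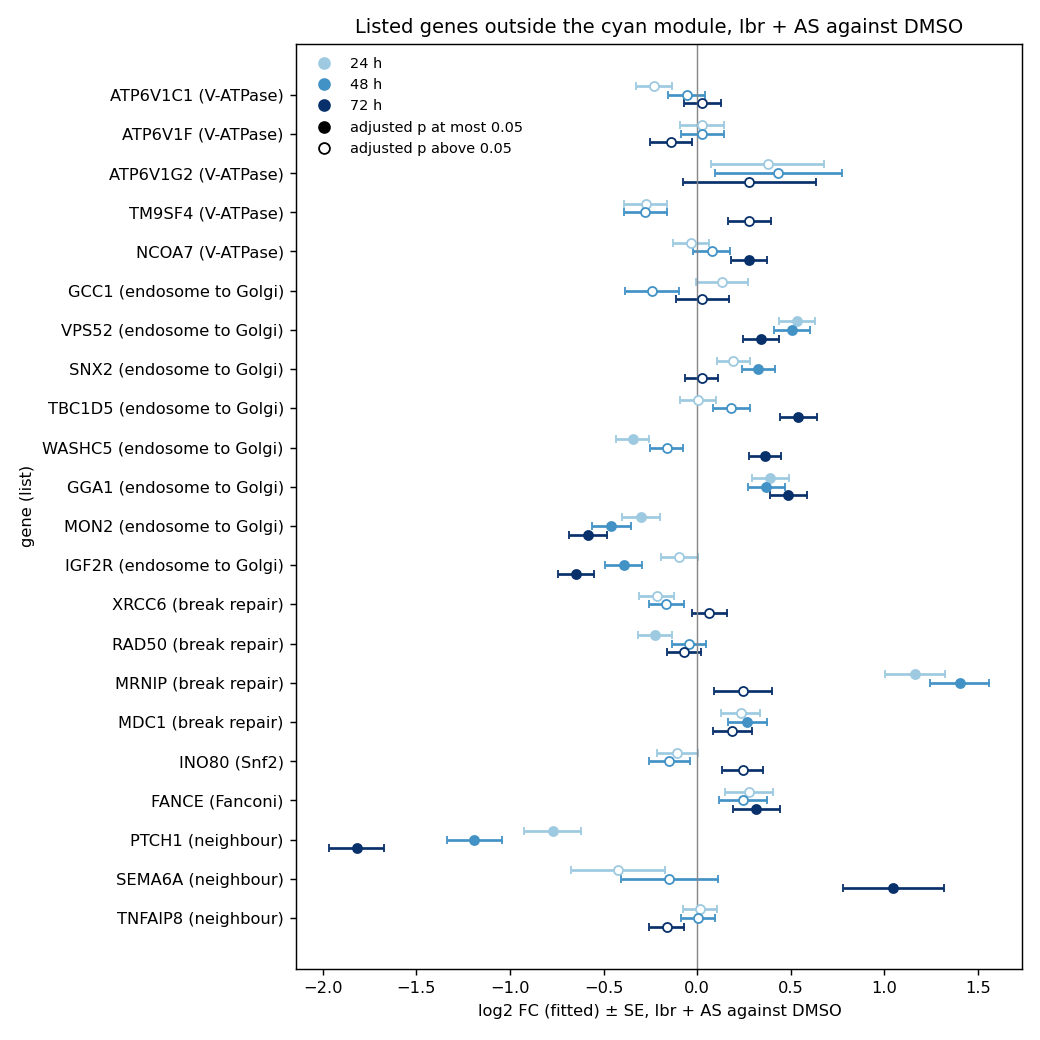
Fitted log2 FC (x axis, bars 1 SE) of the 22 listed genes outside the cyan module with a mean of at least 1 CPM, for Ibr + AS against DMSO at 24, 48 and 72 h (color). Filled points have an edgeR adjusted p of at most 0.05. PTCH1 is the lowest at 72 h (-1.82) and MRNIP the highest at 48 h (1.40), and the V-ATPase genes lie between -0.28 and 0.43.

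The nearest paired genes on either side of each hub, by the gene order of a RefSeq annotation of another dog assembly, were read beside them. Beside ERCC6L2, with 1 gene between them, lies PTCH1, the Hedgehog receptor, which had 14.02 ± 0.897, 20.3 ± 3.46 and 31.5 ± 3.77 CPM with DMSO and 8.25 ± 2.27, 8.83 ± 0.426 and 8.88 ± 2.19 CPM with Ibr + AS at 24, 48 and 72 h (SD, n = 3). It fell by log2 FCs of -0.77 ± 0.15, -1.19 ± 0.15 and -1.82 ± 0.14 (edgeR adjusted p = 1.36e-05, 8.52e-11 and 1.1e-19), while the difference of ERCC6L2 was smallest at 72 h. Its r with ERCC6L2 was 0.516. Of the neighbors of DMXL1, SEMA6A lies with 2 protein-coding genes between them. It had an adjusted p of 0.237 and 0.761 at 24 h and 48 h and was higher at 72 h (log2 FC 1.05 ± 0.27, adjusted p = 0.00439), when its level with DMSO was 14.2 ± 1.58 CPM against 34.2 ± 1.60 CPM at 24 h. This call was lost without replicate 2 (0.83 ± 0.37). TNFAIP8, on the other side of DMXL1, had log2 FCs of 0.02 ± 0.09, 0.01 ± 0.09 and -0.16 ± 0.09 with adjusted p-values of 1, 1 and 0.194, and r with DMXL1 of 0.144. The neighbors of FAM91A1, ANXA13 and FER1L6, and SLC35D2, with 1 gene between it and ERCC6L2, did not exceed 2, 15 and 4 reads in any library. FER1L6 was lower at an adjusted p of 0.00648 at 24 h and 0.0173 at 72 h by edgeR, and at these counts no fold is given.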

How the data were processed

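RNA of CLBL-1 cells was sequenced by the authors as single-end reads of 75 bp on a NextSeq500 after poly-A selection and mapped to CanFam3.1 with STAR 2.7.5a. The deposited table holds raw read counts per Ensembl gene, with none normalized. Which strand column of STAR was kept is not given in the sources used here, so reads of overlapping genes on opposite strands may not be told apart. No column was left without a sample.

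The 3 genes, the gene lists and the tests were chosen with earlier results of these data known. Symbols came from the study's supplementary tables (1068 genes). The named genes are the 3 hubs, every listed gene that could be paired, the nearest paired neighbors, for each hub the 3 paired genes with the highest r, and the 3 lowest and highest cyan genes with Ibr + AS at 48 h. Rows that reached 2 reads in total (18670, and 16468 among the 9 DMSO libraries) were fitted in edgeR 4.0.16 (R 4.3.3) with TMM factors, passage and group, robust quasi-likelihood tests and Benjamini-Hochberg adjustment over all genes. DESeq2 1.42.0 was an alternative, with an NA adjusted p kept as NA. Its shares of all genes are over genes with an adjusted p, except for the single treatments against DMSO and for DMSO alone. For Ibr + AS against DMSO and for additivity at 24 h and 72 h both shares are given. A prior count of 1 entered log2 CPM. As alternatives, the fits were repeated without the passage term, with a term for sequencing run, on the groups of a comparison alone, on all 36 libraries, with RLE factors, with the filter of filterByExpr and with each passage left out. The procedure was checked on simulated counts without a passage effect. The check required recovery of changes of at least 1 on the log2 scale, which are larger than those of the 3 genes.

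Passage numbers come from the labels, which name the same 3 passages in each group. With each group centered, r over genes was taken for each pair of libraries of different groups. Its median was 0.0928 over pairs that share a passage (187 pairs) and -0.0349 over pairs that do not (374 pairs). Centering ties these values to each other, so the second is not a separate result. Passage was kept as a term, as in the study. For DMSO 24 h replicate 3 the title names the passage of replicate 2 but the passage label that of replicate 3, and the latter was used. Replicate libraries differed by more than sampling gives, with a chi-square per degree of freedom of 1.87 (DMSO 24 h replicates 2 and 3) to 26.9. The sample-sheet numbers in the table's header part the libraries into 2 runs of 18, which is an inference. Both libraries of each Ibr + AS and DMSO pair of a passage were in the same run except those of replicate 2 at 48 h.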

Additional observations from a re-analysis of the deposited data

Results flagged for a closer look

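Of the 25 genes listed beside the 3 hubs and outside the cyan module, 7 had an effect of Ibr + AS against DMSO that differed between 72 h and 24 h. The test was that of the difference in the edgeR fit of 35 libraries (adjusted over all genes). The difference was positive for 4 and negative for 3 of the 25, beside 11.6% and 13% of all genes, so the counts were near the shares of all genes. The values are log2 FC at 72 h less log2 FC at 24 h. TM9SF4, a regulator of the V-ATPase, differed by 0.55 ± 0.16 (adjusted p = 0.00627). TBC1D5, a regulator of the retromer, differed by 0.54 ± 0.14 (adjusted p = 0.00149). WASHC5, a subunit of the WASH complex on endosomes, differed by 0.71 ± 0.12 (adjusted p = 1.58e-06), from a log2 FC of -0.34 at 24 h to 0.36 at 72 h. IGF2R differed by -0.55 ± 0.14 (adjusted p = 0.00108). MRNIP differed by -0.92 ± 0.22 (adjusted p = 0.000584). Of the chromosomal neighbors, neither of which is directly next to its hub, PTCH1 near ERCC6L2 differed by -1.05 ± 0.21 (adjusted p = 4.08e-05) and SEMA6A near DMXL1 by 1.47 ± 0.37 (adjusted p = 0.0044). For each of the 7 the DMSO level itself differed between 24 h and 72 h in the fit of the 9 DMSO libraries (edgeR adjusted p at most 0.0041, the value of TM9SF4), as it did for 19.5% (lower) and 18.5% (higher) of all genes. TBC1D5 went from 83.5 to 57.3 CPM with DMSO and from 84.6 to 83.2 CPM with Ibr + AS. IGF2R went from 59.8 to 109 CPM with DMSO and from 56.8 to 69.0 CPM with Ibr + AS. For WASHC5 the means were 380.05 and 259 CPM with DMSO and 304 and 333 CPM with Ibr + AS, and for TM9SF4 41.8 and 35.04 CPM against 34.8 and 42.5 CPM. The DMSO levels of MRNIP, PTCH1 and SEMA6A are given above. With 3 libraries per group, single libraries were not tested as outliers.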

How the results depend on the processing

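Of the 708 values of log2 FC of the 3 genes recomputed under other settings, 11 moved by more than the SD between replicates, and all 11 were values with a passage or a library left out. The causes were not tested.

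With single passages or libraries left out, the log2 FC of Ibr + AS against DMSO ranged at 24 h from -0.59 to -0.20 for ERCC6L2, from -0.84 to -0.33 for DMXL1 and from -0.61 to -0.23 for FAM91A1, and at 72 h from -0.43 to 0.014 for ERCC6L2, from -0.54 to -0.026 for DMXL1 and from -0.42 to -0.076 for FAM91A1. The number of the 3 genes lower ranged from 0 to 3 at 24 h, 0 to 3 at 48 h and 0 to 2 at 72 h. In these fits the share of all genes that were lower ran from 14.9% to 16.8%, 12.6% to 16.7% and 10.9% to 14.3%. Against Ibr the number ranged from 0 to 3 at 24 h (6.92% to 9.47% of all genes) and 2 to 3 at 48 h (6.74% to 10.6%). No count is given at 72 h, where leaving out a passage can leave a single Ibr library. Against AS the number ranged from 1 to 3 at 24 h (8.71% to 11.1%) and 0 to 1 at 72 h (4.2% to 9.04%). The log2 FC against Ibr ranged from -0.52 to -0.11 (FAM91A1, 24 h) and -0.56 to -0.18 (ERCC6L2, 72 h). The value of -0.56 came from the fit without replicate 2, which left a single Ibr library at 72 h. For the departure from additivity the number ranged from 1 to 2 at 48 h (3.97% to 5.76% of all genes). The departure of FAM91A1 at 24 h ranged from -0.38 to -0.035. The effect at 72 h less that at 24 h ranged from 0.13 to 0.56 for ERCC6L2, 0.20 to 0.79 for DMXL1 and 0.065 to 0.48 for FAM91A1. Of the 25 listed genes, 3 to 6 were lower at 24 h, 3 to 5 higher at 48 h and 4 to 7 higher at 72 h. In the main fit the shares of all genes were 16.9%, 15.4% and 14.1%.

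With DESeq2, 5 listed genes were higher at 24 h (edgeR 3, beside 17.1% of all genes in the edgeR fit). Of the 3 genes, 1 was lower against Ibr at 24 h and 2 at 48 h (edgeR 0 and 0), beside 13.9% and 15.3% of all genes. With filterByExpr these counts were 5, 1 and 2, the last 2 beside 17% and 17.9%, and 1 was lower against AS at 24 h (0 without it), beside 20.9%. For both counts of 5 listed genes the share of higher genes in the same fit is not given, so they cannot be set against it. With only the groups of a comparison the counts of the 3 genes were 2 against Ibr (7.73%) and 3 against AS (14.2%) at 24 h. At 48 h they were 3 against Ibr (16%) and 3 for additivity (11.5%).

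Passage was the replicate block of the main fit. Without the block, 3 of 3 genes were lower with Ibr + AS than with DMSO at 24 h and at 48 h (2 with it) and 0 at 72 h. Of all genes, 16.6%, 15.1% and 14.1% were lower in that fit. Against Ibr at 48 h 1 of 3 was lower without the block (0 with it), beside 9.91% of all genes.

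Spearman's rho was 0.835 (ERCC6L2 and DMXL1), 0.732 (ERCC6L2 and FAM91A1) and 0.851 (DMXL1 and FAM91A1), and 0.819, 0.897 and 0.834 for ERCC6L2, DMXL1 and FAM91A1 with the first component of the other cyan genes. Without the 2 libraries farthest from the median, r of DMXL1 and FAM91A1 was 0.928. The leaving out of single Ibr + AS libraries, of DMSO 24 h replicate 3 and of these 2 libraries was chosen after seeing the data.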
